A study of Homo sapiens with 6 samples.

Results

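The interferon-stimulated genes examined here were 44 genes known to be induced by interferons, chosen by name from knowledge of the interferon response. Measured values did not enter the rule, although earlier results of these data were known when the list was drawn up. They were drawn from 19722 genes that a probe of the array could be matched to. Each gene was read by its brightest probe, and a probe was found for 43 of the 44, with none matched for IFI27. Of the 43 genes, 40 could be tested for differences between groups. Expression was profiled in RPMI-8402, an established human cell line of T-cell acute lymphoblastic leukaemia (T-ALL) that expresses the T-lineage factors GATA3 and TCF1. The cells were transduced with lentivirus carrying a control, a short hairpin RNA (shRNA) that targets GATA3, termed shGATA3, or one that targets TCF7, the gene that encodes TCF1, termed shTCF1. Transduced cells were sorted on EGFP after 48 h, and each of the 6 samples was hybridised to 1 one-colour Agilent array, with 2 arrays per group. The study describes the control virus as carrying a hairpin too, so all 3 groups shared lentiviral transduction, EGFP and a hairpin. No array of untransduced cells was analysed here, so a response common to all 3 viruses could not be measured, and the comparisons asked only whether the groups differed in their interferon-stimulated genes.

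Interferons are secreted proteins that cells release when receptors in the endosome or cytoplasm detect viral nucleic acid. Type I interferon binds a receptor made of IFNAR1 and IFNAR2, and the attached kinases JAK1 and TYK2 phosphorylate STAT2. With IRF9 it forms a complex that binds the interferon-stimulated response element (ISRE) in gene promoters. The genes that follow encode sensors of double-stranded RNA, blocks to viral entry and translation, the ubiquitin-like modifier ISG15 and immunoproteasome subunits. Double-stranded RNA and lentiviral particles are both known to be able to trigger this response in some cell types, which is why these genes serve as a control readout in hairpin experiments.

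The arrays were alike in quality. Between 51.02% and 56.18% of probes were well above background, 0 probes were saturated, and arrays correlated at r = 0.9929 to 0.994 within groups and r = 0.9804 to 0.9875 between groups (Pearson's r, across probes). Before normalization the control arrays were brighter, with a 75th percentile of 269.6 and 287.4 intensity units against 165.3 to 178.8 on the hairpin arrays. The first index of the recorded position on the shared slide was 2 for both control arrays and 1 for the other 4, so slide position and the contrast of hairpin arrays with controls cannot be told apart. The targeted genes gave a mixed check of the labels. TCF7 fell by 1.31 on the log2 scale on the shTCF1 arrays (limma, adjusted p = 0.00394), whereas GATA3 on the arrays labelled shGATA3 differed from control by -0.049 (limma, adjusted p = 0.795). No direction below is therefore tied to a loss of GATA3 mRNA. All 8 T-lineage markers were well above background on all 6 arrays. Among markers of other cell types, FCGR3A, CLEC4C, CD22, KLRD1, KLRF1, COL1A2 and EPCAM were well above background on 0 arrays. The mean log2 level of the monocyte list was 4.81 to 4.93 on control arrays, 4.94 to 5.04 on shGATA3 arrays and 4.74 to 4.95 on shTCF1 arrays, and its part in the results was not tested. The mean of the T-lineage list was 12.14 to 12.17, 12.34 to 12.38 and 12.07 to 12.08 on the same groups. RNA came from sorted cells in bulk, so fewer cells of a type and less RNA per cell cannot be told apart.

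Most interferon-stimulated genes were readily detected in every group, although the interferon genes measured were not. Of the 40 tested members, 39 were well above background on all 6 arrays, including sensors, transcription factors and effectors. The exception was GBP1, which was well above background on both control arrays and on neither array of the hairpin groups. Testing itself required such signal on all arrays of at least 1 group, and 27332 of all 31134 tested probes passed on all 6 arrays. Among members that could not be tested, OAS1, an oligoadenylate synthetase, was well above background on 0 arrays. Its relative OASL was well above background on 1 array, a control. The probe of ADAR, an RNA-editing enzyme, was marked as an outlier spot on the second shTCF1 array and left out. The genes of interferon-β (IFNB1), an interferon-α (IFNA2), interferon-γ (IFNG) and interferon-λ (IFNL1) were well above background on 0 arrays. The same was found for CXCL10, CXCL11 and CCL5, chemokine genes that interferon or infection often induces. In contrast, both receptor genes were detected on all arrays, with IFNAR1 at -0.044 and -0.026 and IFNAR2 at 0.15 and 0.094 (log2 difference of shGATA3 and of shTCF1 from control, none called by limma).

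Promoters of the members were searched for the core of the ISRE, the element through which type I interferon acts on its target genes. The letters searched were GAAA, any 2 bases and GAAA, on both strands, in the window of 250 bases before to 50 bases after the start of each gene in RefSeq (GRCh38.p14). A promoter entry was found for 36 of the 44 members, and 24 of the 36 (66.7%) held a match. Across the table, 4.38% of 27305 genes and 3.57% of 35116 promoters held one. A match describes these letters only and is not evidence of binding. The 200 bases before the gene start are printed for 6 members whose values are described below, from an entry with a match in that stretch where a gene has several, each 5′ to 3′ on the strand of the gene, with matches to the ISRE core in capitals. They lie at chr1:1013297-1013496 for ISG15 (plus strand), chr10:89392423-89392622 for IFIT1 (plus strand), chr1:27672193-27672392 for IFI6 (minus strand), chr4:168318753-168318952 for DDX60 (minus strand), chr2:6877577-6877776 for RSAD2 (plus strand) and chr21:41431850-41432049 for MX1 (plus strand).
ISG15: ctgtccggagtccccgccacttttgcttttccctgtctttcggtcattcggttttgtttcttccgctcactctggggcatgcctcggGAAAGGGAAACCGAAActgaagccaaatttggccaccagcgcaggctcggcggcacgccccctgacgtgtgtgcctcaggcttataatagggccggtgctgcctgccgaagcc
IFIT1: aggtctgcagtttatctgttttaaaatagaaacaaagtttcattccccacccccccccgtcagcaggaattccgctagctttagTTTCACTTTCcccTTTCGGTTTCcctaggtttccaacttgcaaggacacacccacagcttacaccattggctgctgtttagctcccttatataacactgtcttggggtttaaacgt
IFI6: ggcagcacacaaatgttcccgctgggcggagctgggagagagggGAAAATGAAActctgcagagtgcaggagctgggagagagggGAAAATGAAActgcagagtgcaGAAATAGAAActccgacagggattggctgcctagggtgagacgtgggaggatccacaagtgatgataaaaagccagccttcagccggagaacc
DDX60: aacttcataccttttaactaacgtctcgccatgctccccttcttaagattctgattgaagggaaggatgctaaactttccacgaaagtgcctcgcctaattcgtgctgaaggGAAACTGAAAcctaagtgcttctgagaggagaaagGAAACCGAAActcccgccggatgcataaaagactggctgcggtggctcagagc
RSAD2: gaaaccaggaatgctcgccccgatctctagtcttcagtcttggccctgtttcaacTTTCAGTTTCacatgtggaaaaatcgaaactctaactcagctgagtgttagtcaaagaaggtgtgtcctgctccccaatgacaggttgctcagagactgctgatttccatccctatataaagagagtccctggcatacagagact
MX1: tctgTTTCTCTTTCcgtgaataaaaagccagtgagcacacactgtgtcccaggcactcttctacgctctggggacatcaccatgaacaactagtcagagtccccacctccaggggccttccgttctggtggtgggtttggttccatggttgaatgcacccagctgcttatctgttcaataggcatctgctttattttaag

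In ISG15 the matches began 113 and 107 bases before the gene start and overlapped, so that 1 run of capitals holds both. IFI6 held 3 matches in this window, beginning 156, 115 and 93 bases before its start, while RSAD2 held 1, beginning 145 bases before. MX1 has 3 promoter entries in the table, and the one printed had its match at the far end, 196 bases before the start, while a second held a match that began 11 bases after its start and the third held none. RSAD2 has a further entry without a match. These 6 genes did not share a direction of change in the arrays. DDX60 was lower and IFI6 higher on shTCF1 arrays, RSAD2 and MX1 were higher on shGATA3 arrays, and IFIT1 was called in no comparison, as detailed below.

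**Figure D1:**
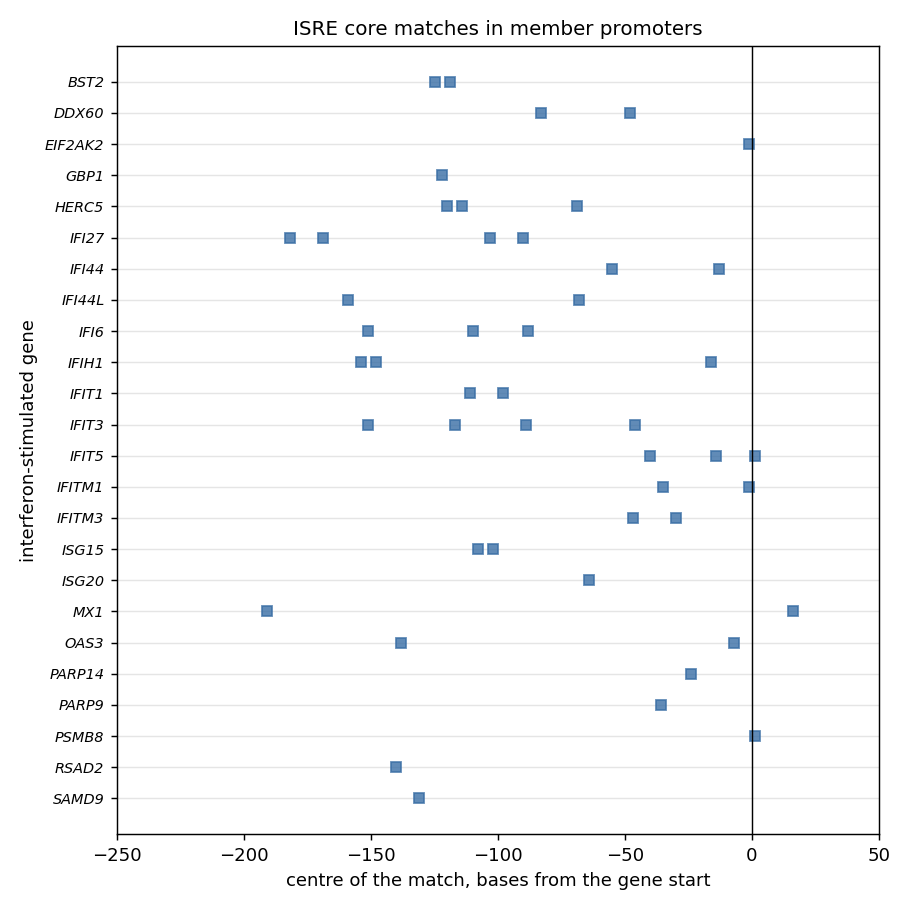
Positions of ISRE core matches in the promoters of the 24 members that held one, over all promoter entries of a gene, in bases from the start of each gene (horizontal axis), with 1 row per gene and 1 square at the centre of each match. Matches lay on both sides of the start, most of them upstream of it.

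Set against control, few interferon-stimulated genes were called in either hairpin group, and the called genes moved both ways. On shGATA3 arrays, 3 of 40 members were called (7.50%), where 6.92% of 14465 genes were called in the same contrast (limma, adjusted p below 0.05). MX1 and RSAD2 rose and GBP1 fell, while 2.77% of all genes rose and 4.15% fell. On shTCF1 arrays, 7 of 40 members were called (17.5%), against 16.3% of genes. MX2, IFITM2 and IFI6 rose, while DDX60, HERC6, USP18 and GBP1 fell, where 6.26% of all genes rose and 10.0% fell. Both shares were near those over all genes. GBP1 passed the probe filter only through the control arrays, where it is high. Among the 39 members well above background on all arrays, 2 (5.13%) and 6 (15.4%) were called. IFIT1, a gene that interferon induces strongly in many cell types, differed from control by -0.083 on shGATA3 and 0.00023 on shTCF1 arrays, and neither difference was called.

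The size of the differences was small in both groups. The median log2 difference of the 40 members was 0.13 on shGATA3 arrays, where the median over all genes was -0.033, and -0.049 on shTCF1 arrays, where it was -0.048. The 39 members well above background on all arrays spanned -0.52 to 0.70 in the first contrast and -0.91 to 0.84 in the second. Without regard to sign, the median was 0.29 for members and 0.19 for all genes on shGATA3 arrays, and 0.19 and 0.23 on shTCF1 arrays. On shGATA3 arrays 28 of 40 members (70.0%) had a positive difference, against 45.4% of all genes, and on shTCF1 arrays 18 of 40 (45.0%) did, against 44.3%. The 95% interval of the difference lay within 2-fold either way for 39 of the 40 members on shGATA3 arrays, all but GBP1. It did so for 37 on shTCF1 arrays, the exceptions being DDX60, MX2 and GBP1. The distance from the difference to the end of its interval ranged from 0.23 to 0.46 on the log2 scale with 2 arrays per group, so differences smaller than this could not be resolved.

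The groups often did not overlap, for members and for other genes, with more members wholly above control than below on shGATA3 arrays. On shGATA3 arrays 28 of 40 members (70.0%) lay wholly above or below both control arrays, against 63.0% of genes. Of the 40 members, 21 lay wholly above and 7 wholly below, where 27.8% of all genes lay wholly above and 35.2% wholly below. On shTCF1 arrays 27 members (67.5%) did not overlap with control, against 69.2% of genes. Of the 40 members, 12 lay wholly above and 15 wholly below, where 29.5% of all genes lay wholly above and 39.7% wholly below. At an unadjusted p below 0.05, 19 and 17 members passed in these 2 contrasts (47.5% and 42.5%), against 27.0% and 34.4% of all genes. With 2 arrays per group, the smallest two-sided p that an exact permutation test of 1 gene can give is 0.333. All calls therefore borrow their error from the other probes of the arrays, as limma does.

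**Figure D2:**
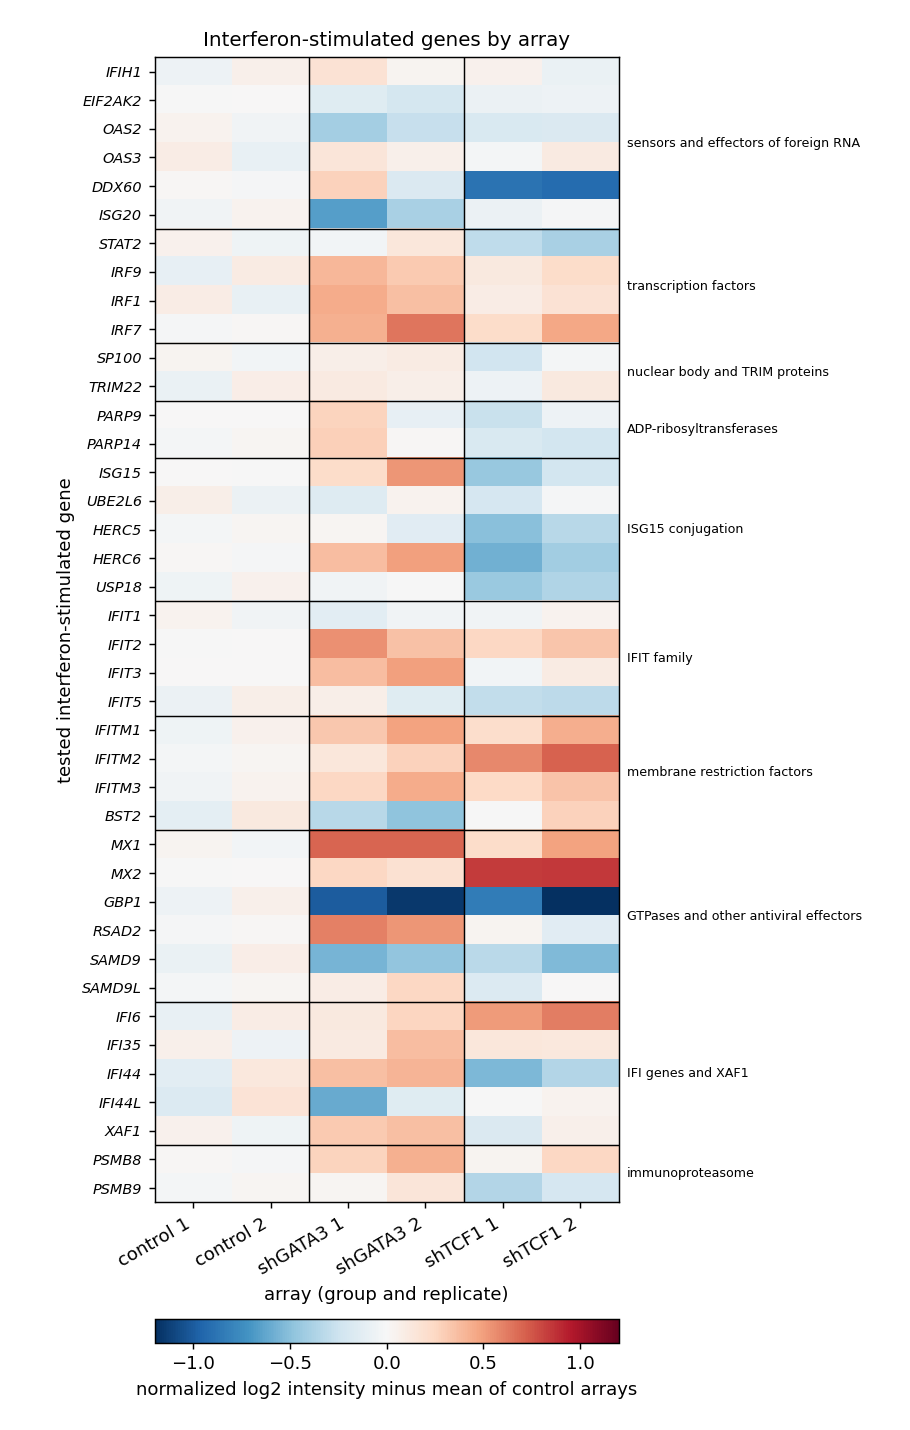
Normalized log2 intensity of each of the 40 tested members (rows, grouped by role) on each of the 6 arrays (columns), as the difference from the mean of the 2 control arrays (colour, red higher and blue lower). MX1 is higher on both shGATA3 arrays and MX2 on both shTCF1 arrays, GBP1 is lower on all 4 hairpin arrays, and most other rows stay within 0.5 of control.

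**Figure D3:**
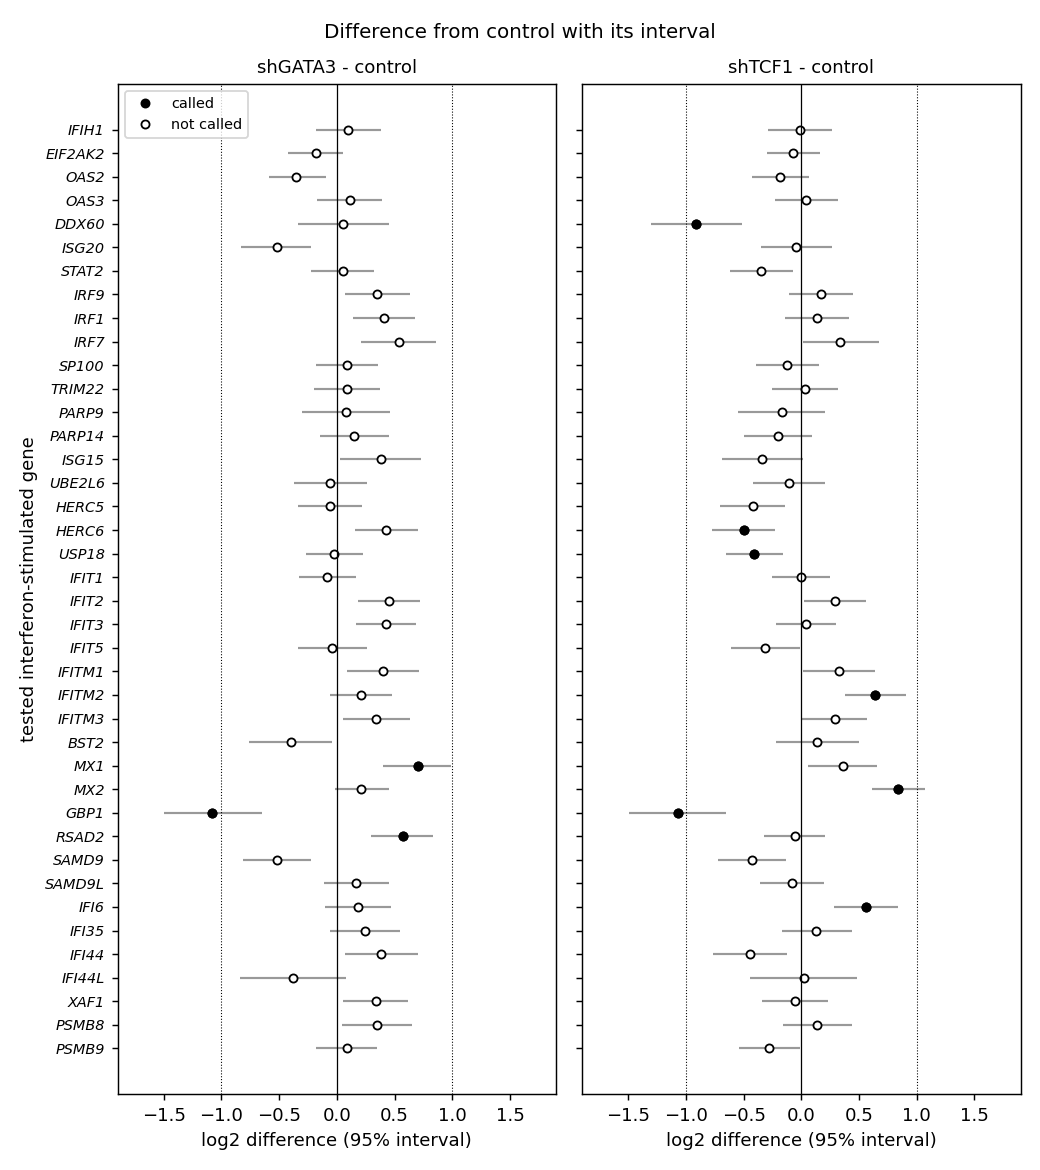
Log2 difference from control (points) with its 95% interval (lines) for the 40 tested members, for shGATA3 arrays (left) and shTCF1 arrays (right), with 2 arrays per group. Filled points were called by limma (3 on the left, 7 on the right), and dotted lines mark a 2-fold difference either way. GBP1 was not well above background on the hairpin arrays, so its point is a measured value and not a fold.

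Among the 6 tested sensors and effectors that act on foreign RNA, DDX60 was called by its brightest probe, on shTCF1 arrays, where 16.3% of all genes were called. DDX60, a helicase linked to RIG-I-type sensing, measured 7.26 and 7.24 on control arrays, 7.53 and 7.08 on shGATA3 arrays and 6.36 and 6.33 on shTCF1 arrays (normalized log2 intensity, as for all levels below). Both shTCF1 arrays lay below the other 4, and the shGATA3 arrays straddled the controls. The difference of shTCF1 from control was -0.91 ± 0.16 (SE, limma, adjusted p = 0.0202), a fall. EIF2AK2, the kinase PKR that halts translation on binding double-stranded RNA, was at 11.64 and 11.65 in control, 11.50 and 11.43 in shGATA3 and 11.57 and 11.58 in shTCF1 by its brightest probe. All 4 hairpin arrays were lower, by amounts that were not called (-0.18 and -0.072). A second, dimmer probe of EIF2AK2 read 9.11 and 8.86 in control, 8.08 and 7.91 in shGATA3 and 8.02 and 7.96 in shTCF1. By that probe, singled out after its values were seen, EIF2AK2 fell by 0.99 in both groups (limma, adjusted p = 0.0151 and 0.01), so the probes of this gene disagreed. OAS2, an oligoadenylate synthetase that activates the nuclease RNase L, measured 7.39 and 7.31 in control, 6.94 and 7.07 in shGATA3 and 7.17 and 7.18 in shTCF1. By this probe, its brightest, the hairpin arrays were again all lower, with differences of -0.35 and -0.18 that were not called. A dimmer probe of OAS2, well above background on all 6 arrays, gave -0.0062 on shGATA3 and 0.20 on shTCF1 arrays, neither called. Both shTCF1 arrays lay above control by that probe. The dimmest probe of OAS2, well above background on 4 arrays, gave -0.36 and -0.23, neither called. The probes of OAS2 thus differed in direction on shTCF1 arrays.

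Of the other sensors and effectors, IFIH1, the double-stranded RNA sensor MDA5, differed from control by 0.10 on shGATA3 and -0.0072 on shTCF1 arrays. OAS3 differed by 0.11 and 0.043, and neither gene was called. ISG20, an exonuclease that degrades RNA, differed by -0.52 on shGATA3 arrays (limma, adjusted p = 0.0648) and by -0.044 on shTCF1 arrays. OASL, not tested, measured 4.36 and 4.61 in control and between 2.91 and 2.99 on all 4 hairpin arrays, where it was not well above background. The ADAR probe read 13.23 and 13.17 in control, 13.52 and 13.22 in shGATA3 and 13.31 on the remaining shTCF1 array.

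The transcription factors that relay the interferon signal all had positive differences on shGATA3 arrays, as did 45.4% of all genes. None of the 4 was called in either contrast with control, where 6.92% (shGATA3) and 16.3% (shTCF1) of all genes were. IRF7, the factor that amplifies interferon-α production, measured 9.70 and 9.73 in control, 10.14 and 10.36 in shGATA3 and 9.94 and 10.18 in shTCF1. All hairpin arrays lay above both controls, by 0.54 ± 0.13 for shGATA3 (SE, limma, adjusted p = 0.0683) and 0.34 ± 0.13 for shTCF1 (adjusted p = 0.128). IRF9, the DNA-binding subunit of the ISRE-binding complex, was at 6.99 and 7.18 in control, 7.48 and 7.40 in shGATA3 and 7.20 and 7.31 in shTCF1. Its differences were 0.35 and 0.17. IRF1, a factor induced by interferon-γ in particular, measured 9.57 and 9.39 in control, 9.93 and 9.84 in shGATA3 and 9.57 and 9.65 in shTCF1. Here the lower shTCF1 array was within rounding of the higher control, and the differences were 0.41 and 0.14. STAT2, which acts with IRF9 in type I signalling, differed by 0.051 on shGATA3 arrays and by -0.35 on shTCF1 arrays (limma, adjusted p = 0.803 and 0.0829).

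The 5 genes of the ISG15 conjugation system all had negative mean differences on shTCF1 arrays, and 2 of them were called lower, where 10.0% of all genes were. UBE2L6 overlapped with control. HERC6, a member of the family of ligases that attach ISG15, measured 5.76 and 5.74 in control, 6.12 and 6.24 in shGATA3 and 5.17 and 5.33 in shTCF1. The 3 groups did not overlap, with shGATA3 highest and shTCF1 lowest. HERC6 fell by 0.50 ± 0.11 on shTCF1 arrays (SE, limma, adjusted p = 0.0331), and its difference of 0.43 on shGATA3 arrays was not called (adjusted p = 0.075). Its second probe gave differences of 0.10 on shGATA3 and -0.75 on shTCF1 arrays, neither called. USP18, the protease that removes ISG15 and also dampens the type I receptor, was at 9.74 and 9.85 in control, 9.75 and 9.79 in shGATA3 and 9.35 and 9.43 in shTCF1. Both shTCF1 arrays lay below the other 4, and USP18 fell by 0.41 ± 0.10 there (SE, limma, adjusted p = 0.0464). The calls of HERC6 and USP18 on shTCF1 arrays were lost with 75th percentile scaling and with quantile normalization. ISG15 itself measured 13.63 and 13.62 in control, 13.85 and 14.15 in shGATA3 and 13.17 and 13.40 in shTCF1. It was thus above control in one hairpin group and below it in the other, by 0.38 and -0.34, neither called (adjusted p = 0.169 and 0.159). HERC5, the main ISG15 ligase, differed by -0.06 and -0.42, and UBE2L6, the conjugating enzyme, by -0.056 and -0.11, with no call.

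Among the IFIT genes, whose proteins bind viral RNA, 0 of 4 were called against control, where 6.92% (shGATA3) and 16.3% (shTCF1) of all genes were. IFIT2 measured 7.98 and 7.99 in control, 8.53 and 8.34 in shGATA3 and 8.23 and 8.32 in shTCF1. All 4 hairpin arrays were above control, by 0.45 on shGATA3 (limma, adjusted p = 0.068) and 0.29 on shTCF1 arrays (adjusted p = 0.123). A dimmer probe of IFIT2, well above background on 4 arrays, gave 0.67 and -0.14, neither called. IFIT1 was at 9.34 and 9.25 in control, 9.17 and 9.25 in shGATA3 and 9.25 and 9.34 in shTCF1. The shGATA3 arrays lay at or just below the lower control, and the shTCF1 arrays spanned the control values. IFIT3 differed by 0.43 on shGATA3 (adjusted p = 0.0688) and 0.041 on shTCF1 arrays, and IFIT5 by -0.038 and -0.31, with no call.

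The IFITM genes, whose membrane proteins block fusion of entering viruses, were higher than control on all 4 hairpin arrays, as were 16.9% of all genes. The 1 call among them was made on shTCF1 arrays, where 6.26% of all genes were called higher. IFITM2 measured 8.69 and 8.73 in control, 8.85 and 8.99 in shGATA3 and 9.29 and 9.42 in shTCF1. It rose by 0.64 ± 0.11 on shTCF1 arrays (SE, limma, adjusted p = 0.018), and its difference of 0.21 on shGATA3 arrays was not called. IFITM1 was at 14.41 and 14.52 in control, 14.79 and 14.95 in shGATA3 and 14.68 and 14.90 in shTCF1. The differences were 0.40 and 0.33 and were not called. For IFITM3 the values were 13.05 and 13.14 in control, 13.34 and 13.54 in shGATA3 and 13.33 and 13.44 in shTCF1, with uncalled differences of 0.34 and 0.29. These 3 genes are paralogs, and whether their probes share signal was not tested. BST2, or tetherin, which holds budding virus at the cell surface, differed by -0.40 on shGATA3 and 0.14 on shTCF1 arrays, neither called.

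The clearest differences were among the GTPases and other antiviral effectors. MX1, a dynamin-like GTPase that blocks influenza virus, measured 10.23 and 10.16 in control, 10.89 and 10.89 in shGATA3 and 10.42 and 10.68 in shTCF1. All hairpin arrays lay above control, and the rise was 0.70 ± 0.12 on shGATA3 arrays (SE, limma, adjusted p = 0.0305). On shTCF1 arrays the difference was 0.36 ± 0.12 and was not called (adjusted p = 0.0935). MX2, its relative that restricts human immunodeficiency virus at the nuclear pore, was at 11.50 and 11.51 in control, 11.75 and 11.69 in shGATA3 and 12.34 and 12.35 in shTCF1. The groups stood apart with little spread inside each, and MX2 rose by 0.84 ± 0.095 on shTCF1 arrays (SE, limma, adjusted p = 0.00762). On shGATA3 arrays the difference was 0.21 ± 0.095 (adjusted p = 0.215). RSAD2, or viperin, an enzyme that makes a chain-terminating nucleotide, measured 6.32 and 6.35 in control, 6.94 and 6.86 in shGATA3 and 6.37 and 6.20 in shTCF1. Both shGATA3 arrays lay above the other 4, and RSAD2 rose there by 0.57 ± 0.11 (SE, limma, adjusted p = 0.0387), and the shTCF1 difference was -0.055.

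GBP1, a guanylate-binding protein induced above all by interferon-γ, was lower in both groups. It measured 4.81 and 4.94 in control, 3.88 and 3.72 in shGATA3 and 4.04 and 3.58 in shTCF1. All hairpin arrays were lower and none of them was well above background, so the fold has only a bound. GBP1 was at least 1.70-fold lower on shGATA3 arrays and at least 1.58-fold lower on shTCF1 arrays, where limma gave adjusted p = 0.0256 and 0.0158. These p values are no independent support, since the probe entered the test only through the control arrays. The calls were lost with no filter on dim probes (adjusted p = 0.0866 and 0.0556). After normexp on the median signal and quantile normalization the differences were -0.18 and -0.21 (adjusted p = 0.155 and 0.0705). That correction added an offset of 50 intensity units, which in itself shrinks log2 differences of dim probes, and the mean intensity of GBP1 was 16.8. These smaller differences therefore cannot decide whether the fall of GBP1 holds. The bound sets the control mean against the weakest signal well above background on each hairpin array. SAMD9, a factor that restricts poxviruses, was at 6.17 and 6.32 in control, 5.69 and 5.77 in shGATA3 and 5.92 and 5.72 in shTCF1. All 4 hairpin arrays were lower, with differences of -0.52 and -0.43 (limma, adjusted p = 0.0619 and 0.0622), neither called. Its paralog SAMD9L differed by 0.17 and -0.078.

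In the remaining groups 1 gene was called against control, where 6.92% (shGATA3) and 16.3% (shTCF1) of all genes were. IFI6, a membrane protein that protects infected cells from death, measured 10.65 and 10.82 in control, 10.85 and 10.99 in shGATA3 and 11.25 and 11.35 in shTCF1. The shTCF1 arrays lay above all others, and IFI6 rose there by 0.56 ± 0.12 (SE, limma, adjusted p = 0.0289), with an uncalled difference of 0.18 on shGATA3 arrays. IFI44, an interferon-induced cytoplasmic protein, was at 9.29 and 9.54 in control, 9.78 and 9.82 in shGATA3 and 8.88 and 9.06 in shTCF1. Its groups did not overlap, with differences of 0.38 and -0.44 that were not called (adjusted p = 0.132 and 0.0675). IFI35 measured 8.80 and 8.68 in control, 8.85 and 9.11 in shGATA3 and 8.88 and 8.87 in shTCF1, with uncalled differences of 0.24 and 0.13. XAF1, a pro-apoptotic protein, differed by 0.34 and -0.055, and IFI44L by -0.38 and 0.023.

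The immunoproteasome subunits, which shape peptides for antigen presentation, were not called. PSMB8 was at 11.23 and 11.21 in control, 11.49 and 11.65 in shGATA3 and 11.25 and 11.47 in shTCF1, with differences of 0.35 and 0.14. PSMB9 measured 12.42 and 12.46 in control, 12.46 and 12.59 in shGATA3 and 12.09 and 12.24 in shTCF1. Its shTCF1 arrays lay below the others, with a difference of -0.28, and the shGATA3 difference was 0.084. The nuclear body protein SP100 (0.088 and -0.12), the restriction factor TRIM22 (0.089 and 0.035) and the ADP-ribosyltransferases PARP9 (0.083 and -0.17) and PARP14 (0.15 and -0.20) were not called on shGATA3 or shTCF1 arrays.

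**Figure D4:**
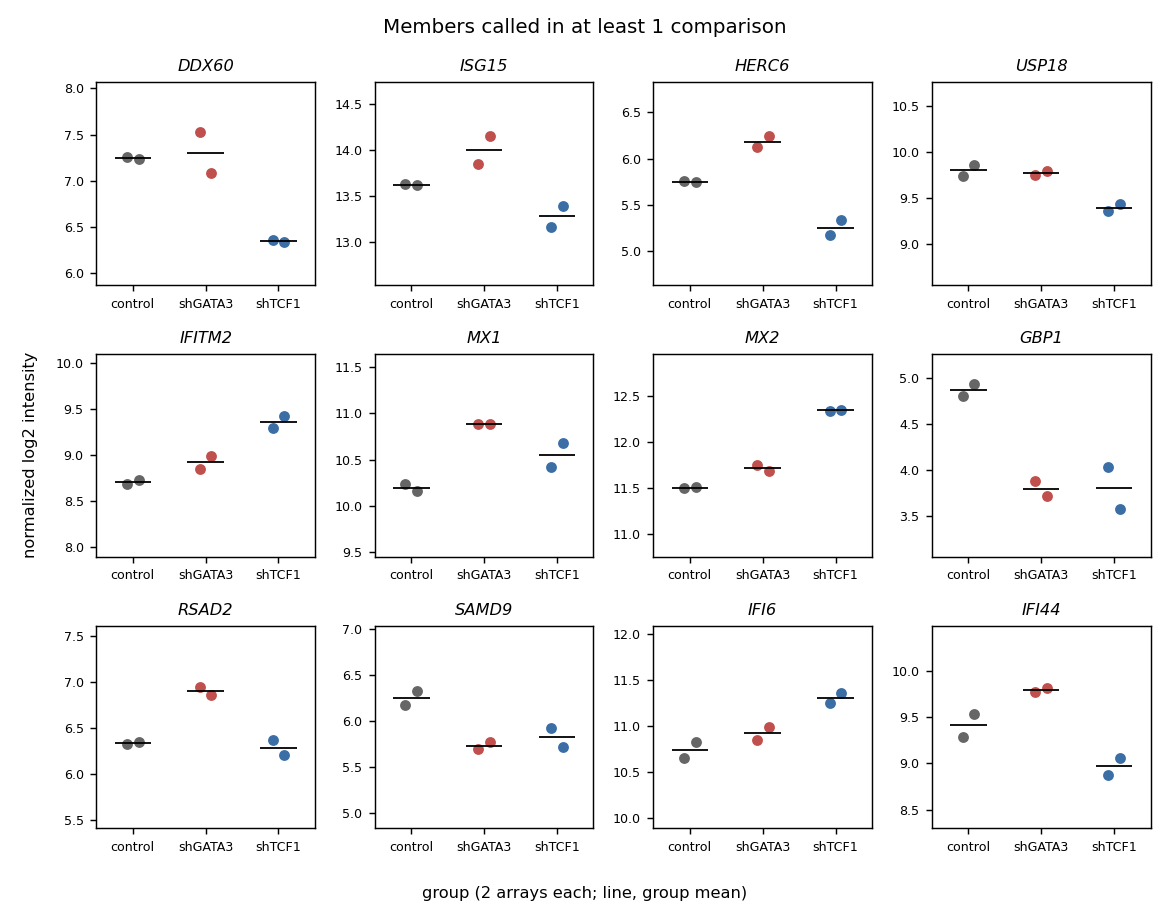
Normalized log2 intensity on each array (points) of the 12 members called by limma in at least 1 comparison, by group, with the group mean (line) and the same span of 2.2 on every vertical axis. MX1 and RSAD2 are highest on shGATA3 arrays, MX2, IFITM2 and IFI6 on shTCF1 arrays, and GBP1 and SAMD9 on control arrays.

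The hairpin groups were also compared with each other. Their arrays shared the first position index, but the second was 3 and 4 for shGATA3 and 1 and 2 for shTCF1 arrays, so position and group cannot be told apart here either, and the control arrays still enter the error of the fit. Here 6 of 40 members were called (15.0%), against 6.60% of genes. DDX60, HERC6, IFI44, ISG15 and RSAD2 were higher on shGATA3 arrays, and MX2 was lower, where 3.77% of all genes were called higher and 2.83% lower. HERC6 had the lowest adjusted p of these and differed by 0.93 ± 0.11 (SE, limma, adjusted p = 0.00941), and DDX60 by 0.96 ± 0.16 (adjusted p = 0.0281). IFI44 was 0.83 ± 0.13 higher (adjusted p = 0.0225), RSAD2 0.62 ± 0.11 (adjusted p = 0.03) and ISG15 0.71 ± 0.14 (adjusted p = 0.0462). MX2 was lower by a difference of -0.62 ± 0.095 (adjusted p = 0.0202). All 5 genes of the ISG15 system had positive differences, from 0.05 to 0.93. The median member difference was 0.19, where that over all genes was 0.0035, and 29 of 40 members were positive (72.5%, against 50.6% of genes). The groups did not overlap for 28 members (70.0%), against 53.4% of genes. Of the 40 members, 20 were wholly higher and 8 wholly lower on shGATA3 arrays, where 27.4% and 25.9% of all genes were.

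Taking both hairpin groups together against control, 5 of 40 members were called (12.5%), where 13.3% of genes were, with 5.18% of all genes higher and 8.11% lower. MX1 (0.53 ± 0.10, adjusted p = 0.0292), MX2 (0.53 ± 0.082, adjusted p = 0.0171) and IFITM2 (0.43 ± 0.094, adjusted p = 0.0387) rose, as log2 differences with SE from limma. SAMD9 fell, with a difference of -0.47 ± 0.10 (adjusted p = 0.039), and GBP1, dim on all 4 hairpin arrays, was called lower with the same limit as above. Without GBP1, 4 of 39 members were called (10.3%). The median member difference was 0.0019. All 4 hairpin arrays lay beyond both control arrays for 16 members (40.0%), against 41.4% of genes. Of the 40 members, 12 were wholly higher and 4 wholly lower, where 16.9% of all genes were wholly higher and 24.5% wholly lower. The 12 were MX1, MX2, IRF1, IRF7, IRF9, IFIT2, IFITM1, IFITM2, IFITM3, IFI6, IFI35 and PSMB8, and the 4 were GBP1, SAMD9, OAS2 and EIF2AK2, each by its brightest probe. The smallest two-sided p of an exact permutation test of 4 arrays against 2 is 0.0667.

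**Figure D5:**
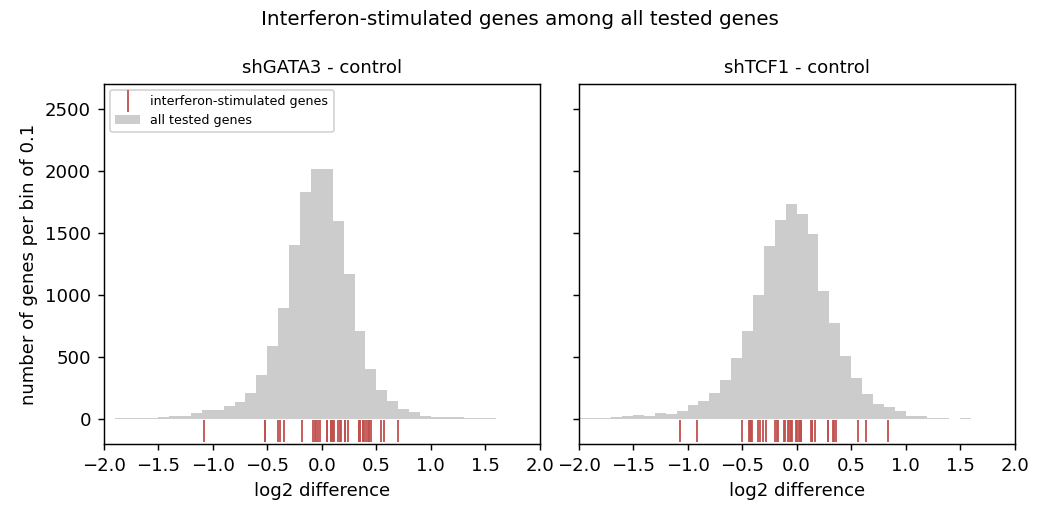
Number of genes per bin of 0.1 (vertical axis, grey) by log2 difference from control (horizontal axis, ended at 2 either way) for 14465 genes, with the 40 tested members as red ticks, for shGATA3 arrays (left) and shTCF1 arrays (right). The ticks span -1.08 to 0.70 on the left and -1.07 to 0.84 on the right. Their medians are 0.13 and -0.049, against -0.033 and -0.048 over all genes. On the left 70.0% of the ticks are positive, against 45.4% of all genes.

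The number of calls depended on single arrays and on the processing. On shGATA3 arrays, 0 members were called when either control array or either shGATA3 array was left out. On shTCF1 arrays 0 were called without control replicate 1, 1 without control replicate 2 (MX2), and 2 without either shTCF1 array (MX2 and GBP1). RSAD2 lost its call on shGATA3 arrays, and USP18 its call on shTCF1 arrays, also when either array of the third group was left out. In the direct comparison HERC6 and IFI44 were called without either control array. With a hairpin array left out, 1 gene was called, DDX60 without shGATA3 replicate 2 and HERC6 in the other 3 cases. For both hairpin groups against control, 0 members were called without either control array and 2 to 4 without a hairpin array. With normexp on the median signal followed by quantile normalization, which changes the signal, the background correction and the scaling together, 13, 14 and 17 members were called on shGATA3 and shTCF1 arrays against control and between the hairpin groups, with 13.8%, 24.8% and 10.5% of all probes called. Of the 13, 12 were higher on shGATA3 arrays, MX1, RSAD2, IRF1, IRF7, IRF9, IFIT2, IFIT3, IFITM1, IFITM3, IFI44, HERC6 and XAF1, and ISG20 was lower. The deposited matrix of normalized values gave 0 calls in every contrast.

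The genes upstream of the response were described from a list of 35 interferon induction and signalling genes, of which 27 could be tested. On shGATA3 arrays 1 was higher and 1 lower, and on shTCF1 arrays 3 were higher and 2 lower (7.41% and 18.5% called), near the 6.92% and 16.3% over all genes. PTPN6, the phosphatase SHP-1 that damps JAK signalling, measured 8.11 and 8.09 in control, 8.95 and 9.10 in shGATA3 and 8.63 and 8.68 in shTCF1. It rose in both groups, by 0.93 and 0.55 (limma, adjusted p = 0.00995 and 0.0225). TLR9, a sensor of unmethylated DNA, fell by 0.68 on shGATA3 arrays (adjusted p = 0.0209). On shTCF1 arrays the kinase TYK2 fell by 0.62 (adjusted p = 0.0475) and the double-stranded RNA sensor TLR3 by 0.70 (adjusted p = 0.026). There the transcription factor IRF5 (0.63, adjusted p = 0.0191) and the feedback inhibitor SOCS3 (0.58, adjusted p = 0.016) rose. The RNA sensor RIGI differed by 0.35 and 0.075, with no call. JAK1 (0.091 and 0.39) and IRF3 (0.24 and 0.081) were not called.

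A second list of 36 further interferon-stimulated genes, 31 of them tested, was mixed in the same manner. On shGATA3 arrays HELZ2 (0.53) and PARP10 (0.65) rose, while EPSTI1 (-1.03) and the deaminase APOBEC3G (-1.08), which mutates retroviral DNA, fell. On shTCF1 arrays the nucleotide hydrolase SAMHD1 (0.60) and GBP4 (0.69) rose, while IFI16 (-0.75), TRIM14 (-0.78), PLSCR1 (-0.67), IFI30 (-0.45) and LAP3 (-0.46) fell. These were 4 and 7 of 31 genes (12.9% and 22.6%, against 6.92% and 16.3% of all genes), with medians of 0.005 and -0.13. Between the hairpin groups 8 of 31 were called (25.8%), 5 higher and 3 lower on shGATA3 arrays, and 3 of 27 signalling genes (11.1%), all lower, where 6.60% of all genes were called. Against the mean of both hairpin groups, control differed for 4 of the 31 and 2 of the 27 (12.9% and 7.41%, against 13.3% of all genes).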

How the data were processed

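Total RNA of 6 samples of RPMI-8402 cells (2 per group) was labelled with Cy3 and hybridised to 1-colour Agilent arrays. Per the file headers, the deposited intensities were made with Feature Extraction 10.7.1.1 (Agilent), which corrected the background of each spot. A second table that the authors deposited holds log2 values, which their methods describe as VSN-normalized. Its scale and centring were not given with it, its column medians were 4.936 to 5.11, and 3 of its 6 columns resembled another array of their group more than their own, so it served as an alternative only. No column of sample values was left unused.

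Control spots and outlier spots were left out (71 probes). Normalization of the intensities followed the VSN model in R 4.3.3 (variance stabilizing normalization: an offset and scale per array, then an arsinh, equal to log2 at high signal), rewritten because the package was not installed, with a trimming quantile of 0.9, 7 iterations and 5 strata. Of 57176 probes, 31134 passed the scanner's mark for signal well above background on all arrays of 1 group or more. These entered a single two-sided fit of limma 3.58.1 (functions lmFit and eBayes) to 6 arrays with group as the only term, with 3 residual and 2.97 prior degrees of freedom. P values were adjusted by Benjamini-Hochberg over the 31134 probes of a contrast and called below 0.05. The methods were tested on simulated data. The number of arrays limits the precision, and the p values measure the spread between arrays, which the study describes as independent experiments.

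Genes were named by matching accessions without version to RefSeq (GRCh38.p14), which named 25729 of the 57176 probes. Each gene was read by its probe with the highest mean intensity. All 44 members are named, array by array where called or where both hairpin groups lay apart from control, and the others by their differences. The genes of the signalling and further lists were given by counts, with called genes and pathway components named, except 1 gene that is not reported here. The members and lists were chosen with earlier results of these data known. Alternatives covered scaling, background correction, probe filter, variance model, replicate block, probe choice, the deposited matrix and each array left out. The scanner files did not hold mean spot signals, so normexp used the median signal, with an offset of 50. All arrays shared 1 slide, so no slide block could be fitted.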

Additional observations from a re-analysis of the deposited data

How the results depend on the processing

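The numbers of members called were 3, 7, 6 and 5 for shGATA3 against control, shTCF1 against control, shGATA3 against shTCF1 and both hairpin groups against control. They became 13, 14, 17 and 12 after normexp on the median signal and quantile normalization (13.8%, 24.8%, 10.5% and 22.2% of all probes called). With an intensity trend in eBayes they were 8, 10, 14 and 11 (12.6%, 23.6%, 10.5% and 21.0% of probes). They were 7, 9, 6 and 7 with only probes that 6 of 6 arrays measured well above background (9.79%, 22.0%, 7.65% and 18.6% of probes), and 1, 3, 2 and 2 with no filter on dim probes (0.981%, 3.97%, 1.58% and 2.31%). With no filter 42 members entered, and the 1 call on shGATA3 arrays was OASL, which was not well above background on the hairpin arrays. MX1, RSAD2 and GBP1 lost their calls there. OASL was also among the 3 calls on shTCF1 arrays and the 2 for both hairpin groups. With the 75th percentile they were 3, 5, 5 and 5, with quantile normalization 4, 5, 6 and 7, and with the mean of all probes of a gene 4, 7, 6 and 6. Leaving out 1 array gave 0 to 2, 0 to 6, 1 to 2 and 0 to 4. In these fits the lone array was assumed to vary like the other groups. With the replicate number as a block they were 1, 5, 4 and 2. The numbers only name the arrays, since deviations of same-numbered arrays correlated at -0.0398, -0.00982 and 0.0488 between groups. The cause of these changes was not tested. MX2 on shTCF1 arrays was called in 13 of 15 alternatives, the most of the members called against control. There IFITM2 was called in 10, DDX60 and IFI6 in 9 each, USP18 in 4 and HERC6 in 3 of 15. On shGATA3 arrays MX1 was called in 8 and RSAD2 in 6 of 15. GBP1 was called in 7 of 14 on shGATA3 arrays and 9 of 14 on shTCF1 arrays. The median member difference on shGATA3 arrays stayed between 0.11 and 0.28 over the alternatives that kept all arrays.

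With the deposited matrix limma called 0 members and 0 probes in each contrast, and 4, 5, 4 and 4 members passed an unadjusted p below 0.05. Some signs reversed there among members called in a contrast or lying apart from control in both hairpin groups. On shGATA3 arrays these were EIF2AK2 (0.55), OAS2 (1.38), IFITM2 (-0.20), MX2 (-0.026) and IFI6 (-0.22). On shTCF1 arrays they were EIF2AK2 (0.56), OAS2 (1.68), USP18 (1.15), ISG15 (2.67), PSMB8 (-0.038) and PSMB9 (0.29). Over all 40 members, 27 kept their sign on shGATA3 arrays and 25 on shTCF1 arrays. The column of the deposited matrix for control replicate 2 correlated with its own array at r = 0.7597, across probes. Of the alternative values of members called in a contrast or lying apart in this way, 621 kept their direction and side of the threshold. A further 146 kept the direction and lost the call, 29 gained a call and 11 reversed. GBP1 and OASL are limited by their signal over background, and GBP1 lost its calls after normexp on the median signal (-0.18 and -0.21) and with no filter on dim probes.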

Other observations

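One gene of the signalling list stood apart on a single array. IFNLR1, a subunit of the receptor of interferon-λ, measured 7.79 on control replicate 1 and 5.43 on control replicate 2, with 5.58 and 5.59 on shGATA3 arrays and 5.77 and 5.84 on shTCF1 arrays. TICAM1, the adaptor of TLR3, was left out because its probe was marked as an outlier on 1 shTCF1 array, and its other values were 11.28 and 11.33 in control, 10.86 and 10.26 in shGATA3 and 10.77 in shTCF1.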
